A study of Mus musculus with 2 samples.

Results

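The type 2 cytokines, alarmins and their receptors were followed here as 9 genes of the 32285 in the deposited matrices, chosen by symbol. They were the cytokine genes Il4, Il5, Il13 and Csf2, the neuropeptide gene Calca, the alarmin genes Il33 and Tslp, and the receptor genes Il1rl1 and Il17rb. All 9 had UMIs (unique molecular identifiers, each standing for 1 captured transcript) in both libraries. In this pathway, stromal, endothelial or epithelial cells release alarmins when they are stressed or damaged. Group 2 innate lymphoid cells (ILC2s) and some T cells carry the matching receptors and answer with IL-5, which sustains eosinophils, IL-13 and IL-4, which act on macrophages and stroma, and GM-CSF, the product of Csf2. In gonadal fat, the supply of IL-33 by mesenchymal cells and the response of resident ILC2s are a known circuit of tissue immunity.

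The cells came from perigonadal white adipose tissue (gWAT) of male Cyp1a1 fate reporter mice (Cyp1a1Cre x R26LSL-eYFP), in which a cell that has once expressed the AHR target gene Cyp1a1 keeps the fluorescent protein eYFP. For 12 weeks the mice ate food with 10% fat (low-fat diet, LFD) or with 60% fat (high-fat diet, HFD). All were injected with the AHR ligand FICZ (10 mg/kg) 5 days before collection, and live eYFP+ cells of the stromovascular fraction, pooled over more than 1 mouse per diet, were sorted, so that cells without eYFP and mice without FICZ were not measured. Each diet was represented by 1 library, whose cells cannot be assigned to mice here, so the difference between diets has no replicate check and no p-value is given; intervals cover counting error only.

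In all, 11281 barcodes with 114311020 UMIs were deposited for LFD and 9631 barcodes with 119498750 UMIs for HFD. After the cell filter and removal of 922 and 658 predicted doublets, 9294 LFD and 7879 HFD cells remained, with medians of 10141 and 12566 UMIs. Both libraries shared 21 barcodes among these cells; leaving those cells out moved no ratio beyond its interval. Cells were clustered without the 9 genes and their pathway partners, and clusters were called X-like from marker genes. ILC2-like cells (Gata3, Rora, Klrg1 and others) made up 1.25% of LFD cells (116 cells) and 1.35% of HFD cells (106 cells). They held a UMI of Gata3 in 88.8% and 93.4% of cells, whereas Cd3e was seen in 1 LFD cell and no HFD cell. Among them, 1 cell in each library carried at least 3 mast cell or basophil markers, with 95 and 112 UMIs of Cpa3; each held 5 UMIs of Il1rl1 and none of Il4, Il5, Il13, Csf2 or Calca. Of 5 eosinophil markers, only Epx was at 0 in each library, and 0 cells of either library held 3 or more of them.

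Most UMIs of the cytokine genes lay in ILC2-like cells. These held 97.7% of all Il5 UMIs in LFD and 98.8% in HFD, and 97.9% and 96.5% of those of Il13. Of Csf2, they held 68.8% and 92.6%, and of Il4 9 of 9 UMIs in LFD and 7 of 10 in HFD. Outside them, Il5 was found in 14 of 9178 LFD cells and 3 of 7773 HFD cells, never with more than 1 UMI in a cell. Il13 was found in 9 and 6 such cells, also at 1 UMI each. Plasma cell-like cells, which should lack these genes, held a UMI of Il5 in 0.252% of LFD and 0.0736% of HFD cells, at median depths of 12219 and 13521 UMIs against 4508.5 and 3851 UMIs in ILC2-like cells. The T-like cells (84 and 72) held no UMI of Il4, Il5, Il13 or Csf2, which allows a share of cells with a UMI of up to 3.57% in LFD and 4.17% in HFD; at their median depths of 1963.5 and 1805 UMIs this sets no limit on cells that express these genes. Few Csf2 UMIs lay outside ILC2-like cells, 10 in 4 LFD cells and 15 in 7 HFD cells. A cycling plasma cell-like cell of the LFD library held 7 of those 10, together with 8 UMIs of Il1rl1 and 3 of Calca. The highest such HFD cell also held 7, and plasma cell-like cells of that library held 0. A lymphoid subcluster left unnamed (1 LFD and 3 HFD cells) was led by Csf2.

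**Figure D1:**
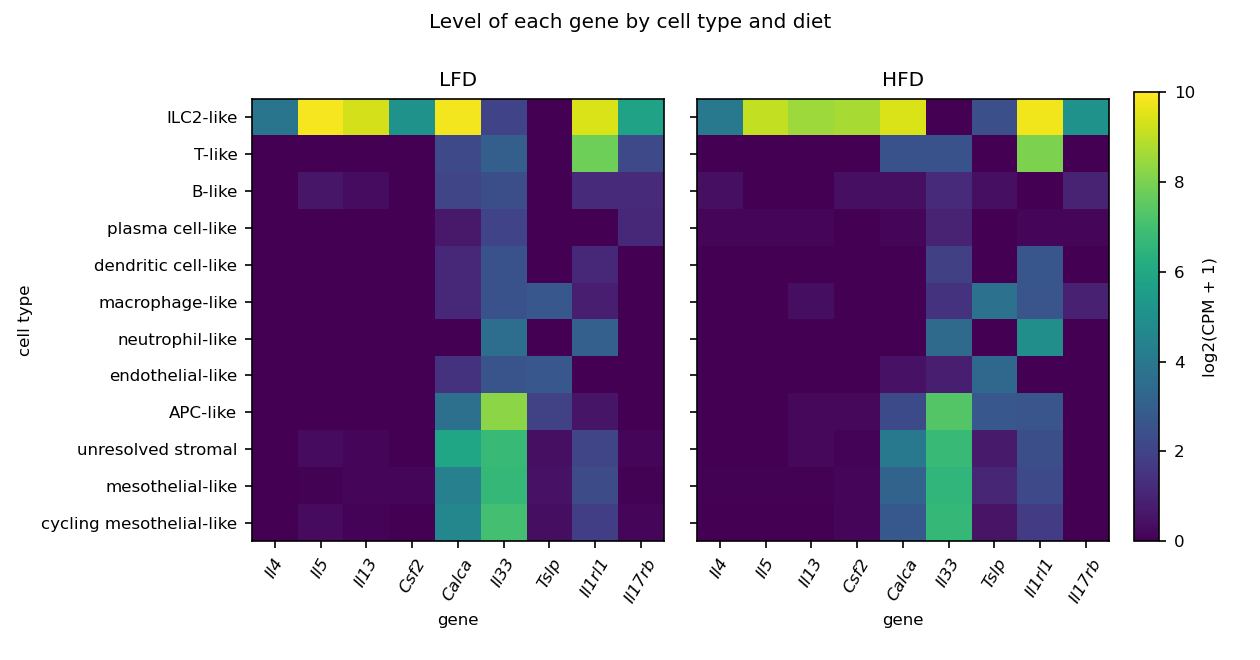
Level of the 9 genes as log2(CPM + 1), where CPM is UMIs per 1000000 of all UMIs of the cells summed, in 12 cell types (rows) of the LFD (left) and HFD (right) library; darker is lower. Il4, Il5, Il13 and Csf2 stand out in the ILC2-like row, Il33 in the stromal rows and Il1rl1 in the ILC2-like and T-like rows.

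In ILC2-like cells, Il5 was lower and Csf2 higher in the HFD library. Il5 had 598 UMIs in LFD and 246 in HFD. Per 1000000 UMIs of these cells (CPM, with 95% Poisson intervals in brackets) this was 922 CPM (849 to 999) against 547 CPM (481 to 620), with a ratio of 0.593 and an interval of 0.509 to 0.689. Il13 followed the same direction, with 654 CPM (593 to 719) under LFD against 371 CPM (317 to 432) under HFD. Its ratio was 0.568 (0.472 to 0.681). Csf2 went the other way: 22 UMIs in LFD and 188 in HFD, equal to 33.9 CPM (21.2 to 51.4) against 418 CPM (360 to 482). The Csf2 ratio of 12.3 (7.90 to 20.1) was the third highest among 5623 genes with at least 20 UMIs in these cells. Il4 was low in both libraries, with 9 and 7 UMIs (13.9 CPM, 6.34 to 26.3, and 15.6 CPM, 6.26 to 32.1), intervals that overlap almost fully.

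Of the 9 genes, 6 had at least 20 UMIs in ILC2-like cells, and only Csf2 was past 2-fold; in the same cells 11.5% of all genes with that many UMIs were past 2-fold in either direction. The median ratio of the 6 was 0.690, against 1.05 over all genes compared. The ratios of Il5 and Il13 were therefore inside the 2-fold range, although their counting intervals lay below 1.

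The cytokine UMIs were spread unevenly over cells. Among LFD cells with Il5 (74 of 116, 63.8%), the lowest had 1 UMI, the median 4 and the highest 86. In HFD, 56 of 106 cells (52.8%) held Il5, with a median of 3 and a highest value of 20. For Il13, 45 LFD cells (38.8%) held from 1 to 127 UMIs and 33 HFD cells (31.1%) from 1 to 23. The LFD cell with 127 UMIs of Il13 carried 30.0% of that library's Il13 in ILC2-like cells, and without the top cell of each library the Il13 ratio was 0.699. After each cell was thinned to 2000 UMIs, 28.1% of LFD and 28.3% of HFD cells held Il13, and the ratio of levels was 0.787. The share of cells with Il13 thus did not separate the libraries at equal depth.

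For Csf2, the share of cells and the highest UMI counts per cell differed, while the median of cells with a UMI was 2 in both libraries. Csf2 was detected in 14 LFD cells (12.1%, interval 6.76 to 19.4), none with more than 2 UMIs, and in 36 HFD cells (34.0%, 25.0 to 43.8), of which 13 had 5 or more UMIs. The highest HFD cell held 48 UMIs, or 25.5% of the total. At 2000 UMIs per cell the shares were 5.26% and 27.3%. Without the top cell of each library the Csf2 ratio was 9.97, and over the 10 alternatives tried it stayed between 8.30 and 13.1.

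**Figure D2:**
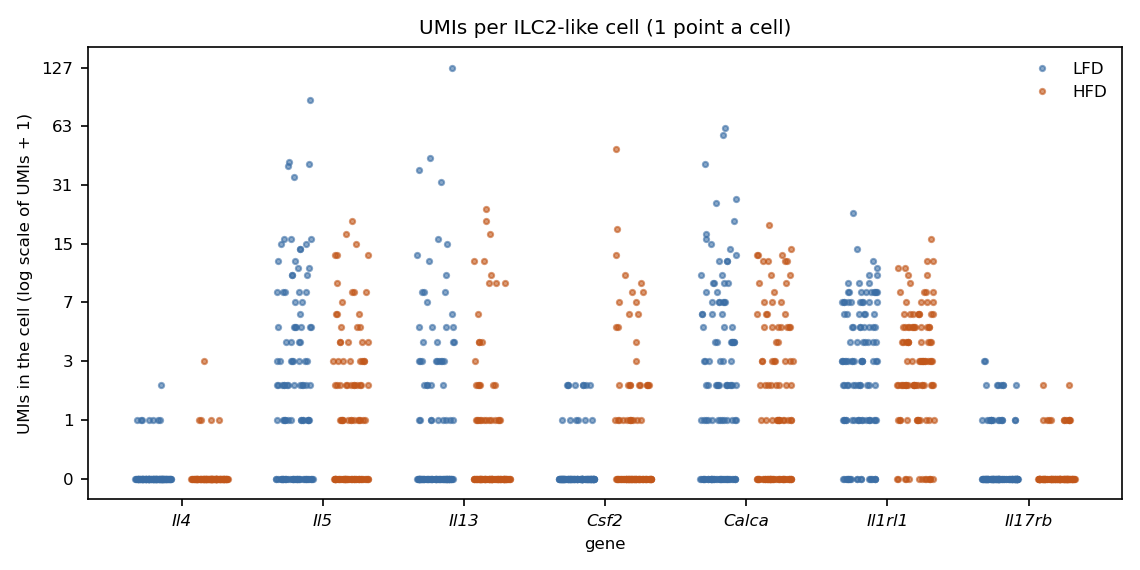
UMIs of 7 genes in every ILC2-like cell, 116 LFD (blue) and 106 HFD (orange), 1 point a cell, on a log scale of UMIs + 1. For Csf2 the LFD cells stop at 2 UMIs and the HFD cells reach 48, whereas the highest Il5 and Il13 values, 86 and 127 UMIs, are LFD cells.

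Cycling cells were 29 of the 116 LFD and 14 of the 106 HFD ILC2-like cells. Within each library they had less Il5 than the other ILC2-like cells: 458 against 1241 CPM in LFD (ratio 0.368, 0.299 to 0.451) and 161 against 656 CPM in HFD (0.246, 0.138 to 0.407). Csf2 was also lower in cycling cells, at 15.1 against 46.9 CPM in LFD and 70.5 against 516 CPM in HFD. Without cycling cells, the HFD to LFD ratios were 0.529 for Il5 and 0.583 for Il13, and Csf2 was at 46.9 CPM under LFD against 516 CPM under HFD. Il13 again rested on few cells: among the cells that were not cycling its ratio was 0.860 without the top cell of each library and 0.894 after thinning.

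The 3 cytokine genes with the most UMIs lie in 1 stretch of chromosome 11 (build mm10, GRCm38). Il13 is at 53631324 to 53634702 on the minus strand, Il5 at 53720794 to 53725106 on the plus strand and Csf2 at 54247271 to 54249667 on the minus strand, each with 4 exons; Il4 is at 53602982 to 53618669 on the minus strand. From Kif3a to Csf2, 682289 bases hold 15 annotated genes that were in the matrices. Rad50, a DNA repair gene between Il13 and Il5 that houses a known control region of the locus, was at 97.1 and 95.6 CPM in LFD and HFD ILC2-like cells, a ratio of 0.984 (0.652 to 1.47). Irf1, a transcription factor gene next to Il5, was at 54.0 and 73.4 CPM (ratio 1.36, 0.819 to 2.25). Thus, of the 5 genes of the interval with at least 20 UMIs, Il13 and Il5 had ratios below 1, Csf2 above 1 and the other 2 intervals that included 1. Il5 and Csf2 are each overlapped by an annotated gene on the opposite strand, Gm12214 and Gm12223, and Gm12214 had no UMI in ILC2-like cells.

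**Figure D3:**
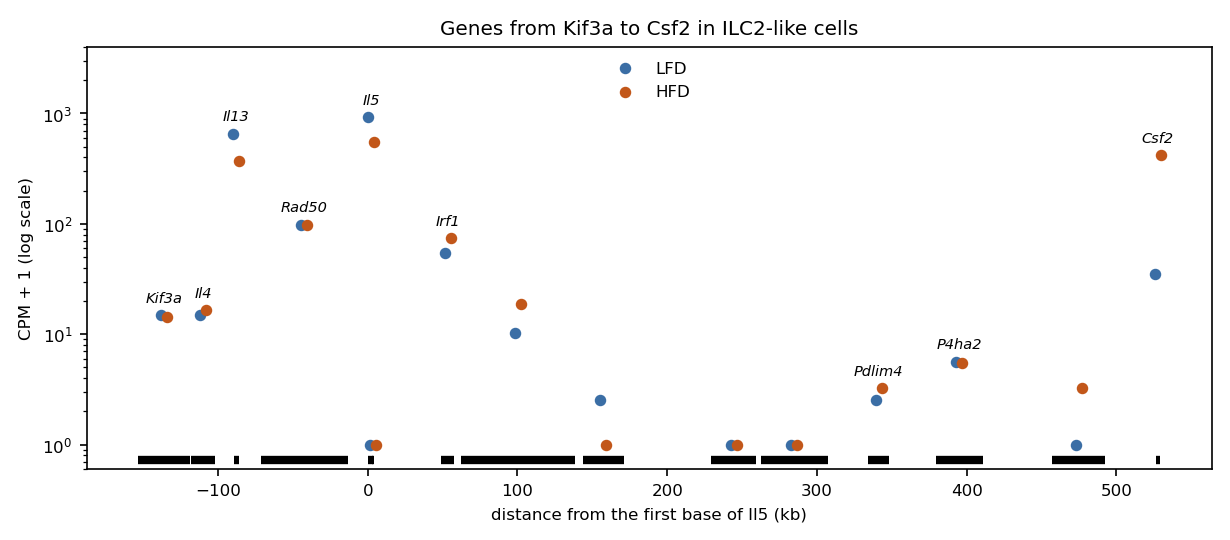
CPM + 1 (log scale) of the 15 genes from Kif3a to Csf2 in ILC2-like cells against their distance from the first base of Il5, LFD in blue and HFD in orange, drawn slightly apart; black bars mark the genes. Il13 and Il5 are the highest LFD points and Csf2, at the far end, is the gene with the widest gap between diets.

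The promoters of these genes, from RefSeq on GRCm38.p6, are shown because they belong to genes of the same cells whose diet ratios differed in direction, and that of Il1rl1 because it held most GATA motifs. Each runs 5′ to 3′ on the gene's strand from 250 bases before the start to 50 bases from it. Capitals mark GATA motifs (the letters AGATAA, the letters AGATAG, the letters TGATAA or the letters TGATAG), the core NFAT motif (GGAAAA) and the AHR core (GCGTG) on either strand.
Il5, chr11:53720544-53720843, plus strand: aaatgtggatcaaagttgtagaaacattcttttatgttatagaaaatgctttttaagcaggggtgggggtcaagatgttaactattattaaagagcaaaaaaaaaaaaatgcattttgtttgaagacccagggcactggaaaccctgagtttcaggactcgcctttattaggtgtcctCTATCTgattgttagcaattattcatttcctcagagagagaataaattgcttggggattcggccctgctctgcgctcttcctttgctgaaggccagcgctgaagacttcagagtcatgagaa
Il13, chr11:53634653-53634952, minus strand: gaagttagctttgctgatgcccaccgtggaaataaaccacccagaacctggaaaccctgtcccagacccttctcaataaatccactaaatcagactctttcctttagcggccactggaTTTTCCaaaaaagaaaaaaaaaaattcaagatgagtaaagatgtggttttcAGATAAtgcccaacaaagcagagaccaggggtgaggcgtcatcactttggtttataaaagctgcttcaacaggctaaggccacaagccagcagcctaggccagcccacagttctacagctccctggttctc
Csf2, chr11:54249850-54250149, minus strand: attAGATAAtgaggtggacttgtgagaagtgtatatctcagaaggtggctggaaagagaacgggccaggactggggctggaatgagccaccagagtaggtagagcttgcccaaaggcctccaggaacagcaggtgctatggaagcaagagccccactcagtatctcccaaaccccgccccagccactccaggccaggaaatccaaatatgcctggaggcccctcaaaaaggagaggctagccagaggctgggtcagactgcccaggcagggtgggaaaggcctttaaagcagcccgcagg
Il1rl1, chr1:40429320-40429619, plus strand: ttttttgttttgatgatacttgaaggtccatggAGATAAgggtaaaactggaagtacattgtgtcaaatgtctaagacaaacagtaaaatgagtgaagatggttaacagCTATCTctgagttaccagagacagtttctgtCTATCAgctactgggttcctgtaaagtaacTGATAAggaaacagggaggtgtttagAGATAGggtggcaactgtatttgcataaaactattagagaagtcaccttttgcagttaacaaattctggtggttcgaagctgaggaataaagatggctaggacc

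A GATA motif was found at -72 in Il5, at -81 in Il13 and at -247 in Csf2, counted from the start site. The RefSeq start of Csf2 lies 232 bases upstream of the GENCODE start. Il13 also had an NFAT core at -132, and the upstream start of Il4 had 4 of them. The first of the 2 starts of Il1rl1 had 5 GATA motifs, at -217, -141, -110, -80 and -54; 0.055% of 32851 promoters of this length held 5 or more, and 29.8% held at least 1. NFAT and AHR cores occurred in 23.4% and 32.4% of promoters. The AHR core was absent from these windows of Il4, Il5, Il13, Csf2, Calca and Il33, and occurred once in Il17rb and once at the second start of Il1rl1. These are letter matches only, and binding was not measured.

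Calca, which encodes both calcitonin and the neuropeptide CGRP, was detected in both ILC2-like and stromal cells, at a far higher level in the former. The counts do not separate its transcripts (7 annotated, chromosome 7, 114631478 to 114636357, minus strand). ILC2-like cells had 899 CPM (827 to 975) under LFD against 685 CPM (610 to 766) under HFD (ratio 0.762, 0.662 to 0.876). Without cycling cells the ratio was 0.871 (0.742 to 1.02), so that its interval included 1. Calca was detected in 64.7% of LFD and 56.6% of HFD ILC2-like cells. In the HFD library cycling ILC2-like cells had less Calca (262 against 805 CPM), while in LFD the values were 862 and 924 CPM with a ratio interval of 0.786 to 1.11.

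In stromal cells, Calca was low per cell but lower still under HFD in every cluster compared. The largest LFD stromal cluster, led by Ptn, Itm2a and Ncam1 and left unresolved because its markers fell between APC (adipocyte precursor cell) and mesothelial lists, had 57.5 CPM (54.9 to 60.2) in 2863 LFD cells and 15.6 CPM (13.5 to 18.0) in 747 HFD cells. The ratio was 0.272 (0.234 to 0.315). In mesothelial-like cells Calca was at 19.4 and 8.003 CPM, in cycling mesothelial-like cells at 23.6 and 5.69 CPM and in APC-like cells at 12.1 and 3.70 CPM, with ratios of 0.411, 0.241 and 0.307 and all intervals below 1. Calca was past 2-fold in all 4, where 7.22% of genes in unresolved stromal, 4.09% in mesothelial-like, 4.96% in cycling mesothelial-like and 9.36% in APC-like cells were. Under a stricter filter (at least 2000 UMIs and under 5% mitochondrial UMIs) the Calca ratio was 0.524 in cycling mesothelial-like cells and 0.543 in APC-like cells, of which 43 LFD and 235 HFD cells were left; neither was past 2-fold. It was 0.196 in mesothelial-like cells. Over all stromal cells other than APC-like, 18.5% of 5672 LFD cells and 6.84% of 3407 HFD cells held a Calca UMI, while plasma cell-like cells did in 1.76% and 0.442%; after thinning the stromal shares were 5.69% and 1.36%. When the libraries were clustered without alignment, the ratios in unresolved stromal and mesothelial-like cells were 0.567 and 0.785, while over all stromal cells other than APC-like the ratio stayed between 0.209 and 0.275 in every alternative.

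Il33, whose product is released from the nucleus of damaged cells and binds the receptor encoded by Il1rl1, was a stromal transcript: 99.3% of its UMIs in LFD and 99.2% in HFD lay in stromal cells. Under LFD, the level was 329 CPM (318 to 341) in a mesothelial-like cluster led by Timp1 and 302 CPM (280 to 327) in APC-like cells, which do not differ beyond their intervals. It was 128 CPM (122 to 134) in cycling mesothelial-like, 109 CPM (105 to 112) in unresolved stromal and 98.9 CPM (94.4 to 104) in mesothelial-like cells. In HFD the order was APC-like (160 CPM, 150 to 170), unresolved stromal (106 CPM, 101 to 112), cycling mesothelial-like (101 CPM, 95.2 to 107) and mesothelial-like cells (94.7 CPM, 91.5 to 97.9), the last 3 of which had neighbouring intervals that overlapped. Endothelial-like cells had 20 Il33 UMIs in LFD and 2 in HFD (5.08 CPM, 3.10 to 7.84, and 0.779 CPM, 0.0943 to 2.81), intervals that overlap those of plasma cell-like cells (2.70 CPM, 1.48 to 4.53, and 1.14 CPM, 0.725 to 1.72).

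Il33 was lower in HFD in APC-like cells, with a ratio of 0.529 (0.479 to 0.585); 70.9% of 206 LFD cells and 55.3% of 589 HFD cells held a UMI, and 30.8% and 25.3% after thinning. Thinning moved the ratio to 0.657 and a stricter cell filter to 0.677. In the unresolved stromal and mesothelial-like clusters the ratios were 0.979 (0.919 to 1.04) and 0.957 (0.903 to 1.01). Over all stromal cells other than APC-like the ratio was 0.718 (0.695 to 0.742). The Timp1-led cluster held 544 LFD and 10 HFD cells, and an Ifit1-led cluster 69 LFD cells and 1 HFD cell; without both the ratio was 0.894. Because those clusters come almost wholly from 1 library, a cell state and that library cannot be told apart. Without alignment, the ratios within unresolved stromal and mesothelial-like cells were 0.599 and 0.670.

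**Figure D4:**
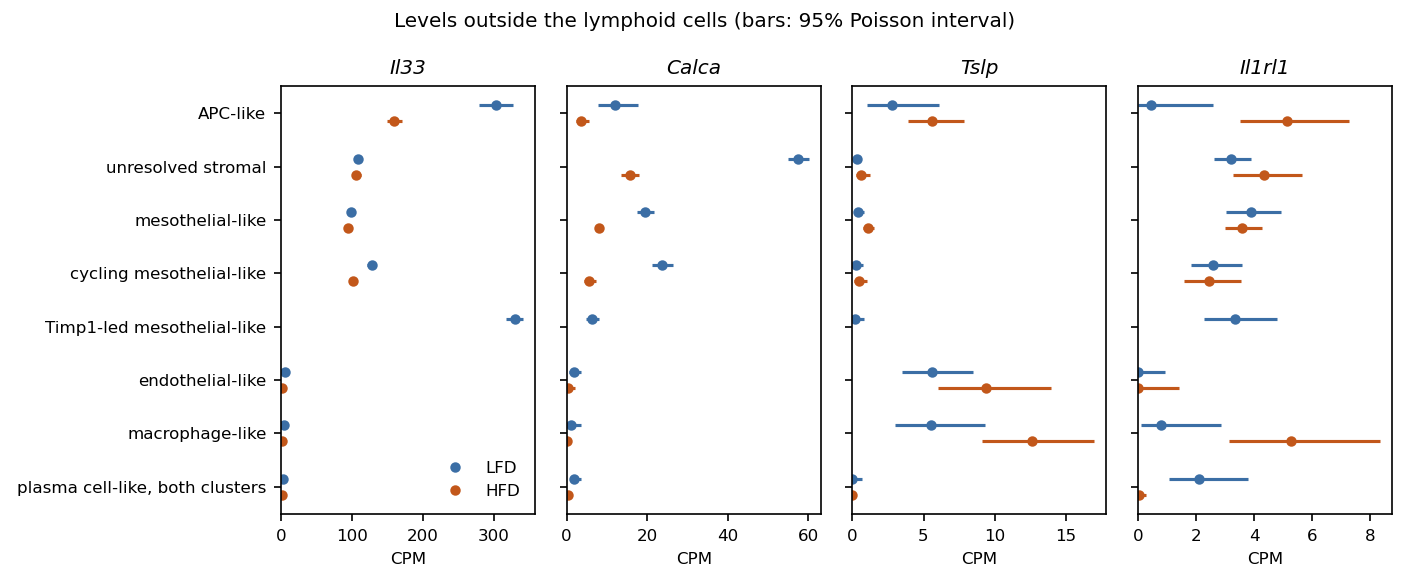
CPM (points) with 95% Poisson intervals (bars) of Il33, Calca, Tslp and Il1rl1 in cell types outside the lymphoid cells, LFD in blue and HFD in orange; the HFD value of the Timp1-led cluster (10 cells) is left out. Il33 and Calca lie above the plasma cell-like level in the stromal rows, Tslp in the APC-like, endothelial-like and macrophage-like rows.

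Tslp, an alarmin that signals through the receptor chain encoded by Crlf2, had 66 UMIs in LFD cells and 160 in HFD cells. Macrophage-like cells had 5.55 CPM (3.03 to 9.31) under LFD against 12.6 CPM (9.12 to 17.0) under HFD (ratio 2.27, 1.22 to 4.49). Endothelial-like cells had 5.59 CPM (3.50 to 8.46) and 9.35 CPM (5.99 to 13.9), and APC-like cells 2.78 CPM (1.02 to 6.06) and 5.62 CPM (3.92 to 7.82). Both of those ratio intervals included 1. In stromal cells other than APC-like, Tslp was at 0.325 and 0.8803 CPM (ratio 2.71, 1.64 to 4.59). Plasma cell-like cells held none (0 of 397 and 0 of 1359 cells, which allows a share of cells with a UMI, not of cells expressing Tslp, of up to 0.756% and 0.221%). Tslp was past 2-fold in macrophage-like cells (14 and 43 UMIs), where 5.92% of genes were, and in APC-like cells (6 and 35 UMIs, ratio 2.02), where 9.36% were. It was also past 2-fold in mesothelial-like cells (7 and 40 UMIs), where 4.09% of genes were. The same was seen over stromal cells other than APC-like (24 and 53 UMIs), where 7.39% were. In endothelial-like cells, where 8.2% of genes were past 2-fold, Tslp was not. In macrophage-like, APC-like and mesothelial-like cells, Tslp reached 20 UMIs only through the library where it was higher. So did Il1rl1 in macrophage-like and Il33 in endothelial-like cells. Nothing is read from any of these passing 2-fold.

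The Tslp values rested on few molecules and moved with the cell filter. Only 13 LFD and 29 HFD macrophage-like cells held a UMI, with at most 4 in a cell. Under the stricter filter, the macrophage-like levels were 2.76 and 3.92 CPM. In mesothelial-like cells the ratio of 2.84 was 0.966 after thinning, 4.92 under the stricter filter and 6.85 without alignment. Over stromal cells other than APC-like it was 1.00 after thinning and 6.37 under the stricter filter. The share of stromal cells other than APC-like that held Tslp was 0.406% in LFD and 1.20% in HFD, and 0.0886% and 0.0888% after thinning, at median depths of 12472 and 17333 UMIs. In macrophage-like cells, which were also deeper in HFD (6221 against 4286 UMIs), the thinned ratio was 2.78. The part of depth in the Tslp values was not tested.

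Il1rl1, which encodes the IL-33 receptor ST2 (chromosome 1, 40429570 to 40465415, plus strand), was the most widely detected member in ILC2-like cells. A UMI was found in 82.8% of LFD (74.6 to 89.1) and 87.7% of HFD cells (79.9 to 93.3), with a median of 3 UMIs per cell in both. The level was 683 CPM (621 to 750) under LFD against 878 CPM (794 to 969) under HFD (ratio 1.29, 1.12 to 1.48). Without cycling cells the ratio was 1.14 and its interval, 0.979 to 1.34, included 1. The Il1rl1 ratio was thus inside 2-fold in both sets of cells, whereas that of Csf2 was past it.

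T-like cells were the other lymphoid cells with Il1rl1, at 221 CPM (170 to 284) under LFD against 261 CPM (197 to 339) under HFD (ratio 1.18, 0.806 to 1.72). It was the only member compared there, and 10.3% of genes compared in T-like cells were past 2-fold. Within them, cells with a UMI of Foxp3, the factor that defines regulatory T cells, held Il1rl1 more often. In LFD it was found in 18 of 27 cells with Foxp3 (66.7%, 46.0 to 83.5) and 9 of 57 without (15.8%, 7.48 to 27.9). In HFD it was found in 10 of 21 (47.6%, 25.7 to 70.2) and 7 of 51 (13.7%, 5.70 to 26.3). The Foxp3 cells were also deeper, with medians of 2769 against 1892 UMIs in LFD and 1953 against 1599 UMIs in HFD, and the part of depth in this difference was not tested.

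Stromal cells other than APC-like held a low level of Il1rl1, 3.25 CPM (2.85 to 3.69) under LFD against 3.54 CPM (3.08 to 4.05) under HFD, in 2.91% and 3.64% of cells. Plasma cell-like cells held it in 0.756% and 0.0736%. Few of the stromal cells with Il1rl1 also held Gata3 (5 of 165 in LFD and 6 of 124 in HFD), against 88 of 96 and 87 of 93 ILC2-like cells. Macrophage-like cells had 2 UMIs in LFD and 18 in HFD, 8 of them in 1 cell that also held Gata3, and APC-like cells 1 and 32, in 11 HFD cells. Their ratios, 6.65 (1.59 to 59.1) and 11.1 (1.85 to 452), rest on 2 and 1 LFD UMIs. After thinning they were 2.05 and 1.77. The brighter neutrophil-like square of the HFD heat map stands for 3 Il1rl1 UMIs in 1 of 77 shallow cells (median 1025 UMIs), against 2 UMIs in 183 LFD cells.

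Il17rb, a chain of the receptor for IL-25, was low and centred on ILC2-like cells. It had 35 UMIs in LFD and 15 in HFD, or 54.0 CPM (37.6 to 75.04) and 33.4 CPM (18.7 to 55.0), in 20.7% and 12.3% of cells. The interval of its ratio of 0.618 (0.314 to 1.16) included 1, and that without cycling cells (ratio 0.487, 0.225 to 0.995) did not. Plasma cell-like cells held Il17rb in 1.01% and 0.589% of cells. Il25, which encodes its ligand, had 0 LFD and 1 HFD UMI in ILC2-like cells.

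**Figure D5:**
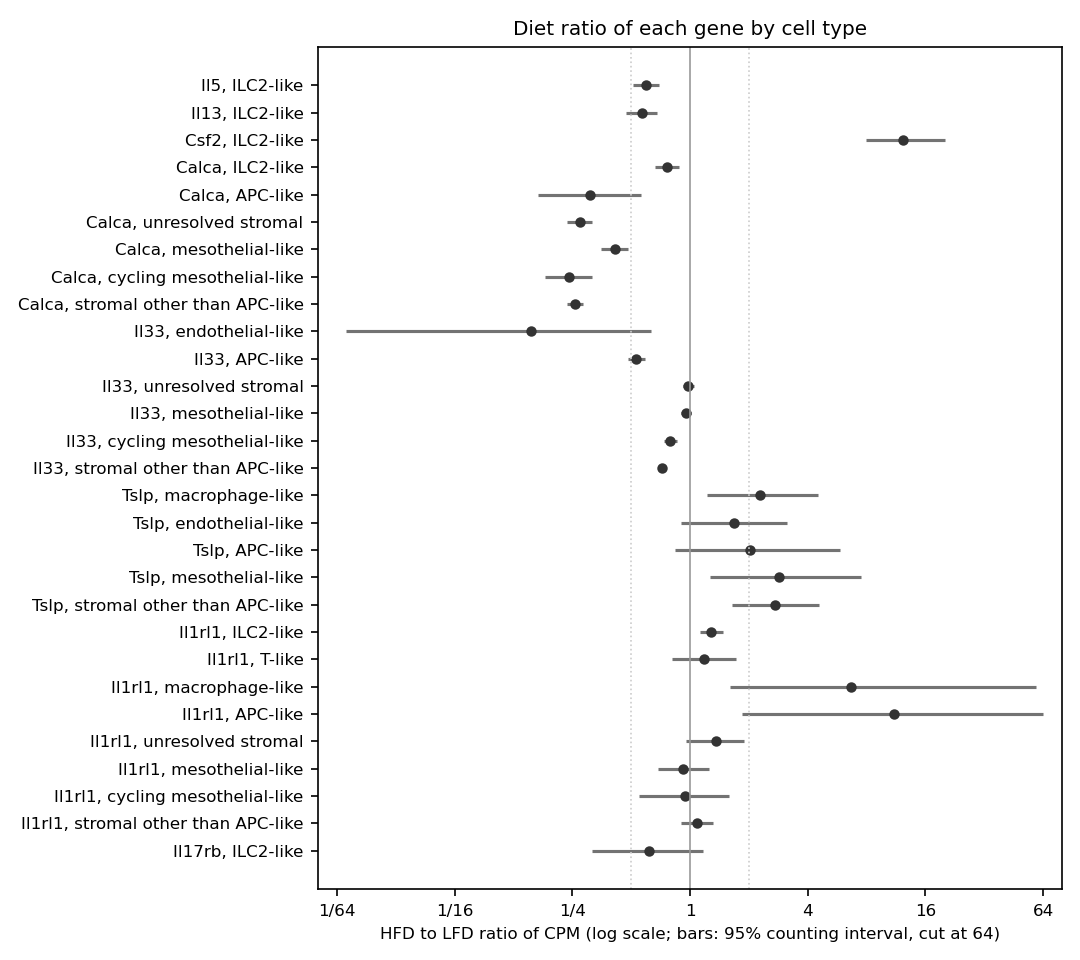
HFD to LFD ratio of CPM (points, log scale) with 95% counting intervals (bars, cut at 64) for each gene and cell type with at least 50 cells in both libraries and 20 UMIs; dotted lines mark 2-fold. Csf2 in ILC2-like cells lies at 12.3, Calca lies below 1 in every stromal row and Il33 lies nearest to 1 in the unresolved stromal and mesothelial-like rows.

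Single ILC2-like cells often carried several of the 5 ligand genes Il4, Il5, Il13, Csf2 and Calca. At least 1 was detected in 86.2% of LFD and 83.0% of HFD cells, and at least 2 in 67.2% and 53.8%. After thinning, at least 2 were detected in 44.7% and 49.5%, so that the order of the libraries changed. Il5 and Il13 were found together in 35 LFD cells and 24 HFD cells, where the product of their shares gives 28.7 and 17.4 cells. Of cells with Il13, 77.8% in LFD and 72.7% in HFD also held Il5. Il13 and Csf2 were found together in 2 LFD cells and 12 HFD cells (products of shares 5.43 and 11.2 cells), and Il13 and Calca in 33 and 27 cells (29.1 and 18.7 cells). After thinning, Il5 and Il13 were together in 21 LFD and 16 HFD cells (products of shares 16 and 12.2 cells). Thinned values for Il13 and Csf2 were 0 and 6 cells (1.68 and 7.64), and for Il13 and Calca 16 and 18 cells (16.8 and 13.9). Without thinning, all 5 ligand genes were found in 2 HFD cells and in no LFD cell.

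Partners of the pathway were taken from lists and compared in ILC2-like cells where at least 20 UMIs allowed. Of 39 partner genes, 13 had enough UMIs. Of their ratio intervals, 6 lay above 1, 1 lay below 1 and 6 included 1. The share of such intervals over all genes was not computed. The 3 partner genes past 2-fold were all up. Of all 5623 genes compared in these cells, 11.5% were past 2-fold, 393 up and 255 down. Among receptor partners, Ramp1, which pairs with the CGRP receptor, was at 89.4 and 173 CPM (ratio 1.94, 1.36 to 2.77), while Ramp3 (327 and 280 CPM, ratio 0.857, 0.682 to 1.07) and the TSLP receptor chain Crlf2 (163 and 129 CPM, ratio 0.789, 0.563 to 1.10) had intervals that included 1. Il4ra, the receptor chain for IL-4 and IL-13, was at 21.6 and 75.6 CPM (14 and 34 UMIs, ratio 3.50, 1.83 to 7.06). Stat6, which transmits its signal, was at 24.7 and 57.8 CPM (16 and 26 UMIs, ratio 2.34, 1.21 to 4.68). Both reached 20 UMIs only through HFD, and nothing is read from their passing 2-fold. Bcl11b, a transcription factor of the ILC2 lineage, was at 111 and 224 CPM (ratio 2.02, 1.48 to 2.78). Bcl11b was not past 2-fold without cycling cells (ratio 1.77, 1.22 to 2.61), which left 2 partner genes past it, nor after division by the median-ratio scaling factor of these cells, 1.07. Areg, the growth factor amphiregulin, was abundant at 3547 and 5031 CPM (ratio 1.42, 1.34 to 1.504).

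In macrophage-like cells, 6 of the 9 genes on the list of cytokine receptors could be compared. Of these, Il4ra (ratio 0.681, 0.577 to 0.804) and Il13ra1 (0.662, 0.503 to 0.871) were lower in HFD, as were Csf2rb, the chain shared by the GM-CSF and IL-5 receptors (0.787, 0.712 to 0.869), and Csf2rb2 (0.717). Csf2ra, the GM-CSF receptor's own chain, was higher (1.22, 1.08 to 1.37), and the interval of Il2rg (0.894, 0.713 to 1.12) included 1. Among genes known to respond to type 2 cytokines, Retnla (19.8 and 176 CPM, ratio 8.86, 6.63 to 12.1) and Mrc1 (ratio 1.34) were higher, and Chil3 (ratio 0.397) and Ccl24 (ratio 0.158, 0.124 to 0.200) were lower. In APC-like cells, 20 of 39 partner genes had enough UMIs, with 7 ratio intervals above 1, 2 below 1 and 11 that included 1. The share of such intervals over all genes was not computed. Past 2-fold, 4 of these partner genes were up and 2 down. Of all 11248 genes compared in APC-like cells, 9.36% were past 2-fold, 798 up and 255 down, with a median ratio of 1.08. Above 1 were, beside Ccl11, Areg (1 and 74 UMIs, ratio 25.6, 4.46 to 1026), Csf2rb2 (8 and 64 UMIs, ratio 2.77), the enkephalin gene Penk (ratio 2.30), Ramp1 (ratio 2.12), Stat6 (ratio 1.44) and Ramp2 (ratio 1.31). Areg and Csf2rb2 reached 20 UMIs there only through HFD, and nothing is read from their ratios. Il4ra was at 62.2 and 27.0 CPM (ratio 0.434, 0.344 to 0.549) and the eosinophil attractant Ccl11 at 91.8 and 160 CPM (ratio 1.74, 1.49 to 2.04), while Ccl24, also an eosinophil attractant and the only other gene of the response list compared there, was at 19.0 and 3.21 CPM (ratio 0.169, 0.0938 to 0.295).

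Across 31 points, each a cell type of a library with at least 50 cells, the genes whose log2(CPM + 1) was most like that of Il5 were Il13 (Pearson's r = 0.999), Il22 (0.995) and Cma1 (0.990). Cma1 was also most like Csf2 (0.967), but 97.1% of its UMIs lay in 2 cells, the mast cell or basophil marker cells named above, and 51.4% of those of Il22 lay in 2 cells. For Il17rb, Cpa3 (0.950) rested on the same cells. Il33 was most like Chl1 (0.953), Pdgfra (0.942) and Wnt4 (0.932), and Il1rl1 most like Bcl11b (0.904) and Klrg1 (0.901). Tslp was most like 2610203C22Rik (0.863) and Mertk (0.859), and Calca most like Aldh3a1 (0.856) and Bex1 (0.842). The points share libraries and depth, and where a gene is at or near 0 in all but the ILC2-like points, r rests on those points.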

How the data were processed

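Single-cell 3′ transcriptomes (10x 3′ v3) of sorted eYFP+ cells were available as 1 library per diet. The authors deposited UMI counts per gene and barcode, made with Cell Ranger 4.0.0 on mm10 (STAR, bcl2fastq 2.17.1.14 and Seurat 4.1.0 are also named in the submitters' processing notes); the annotation release is not given in the sources used here. Cells with 500 to 40000 UMIs, at least 100 genes and under 12.5% mitochondrial UMIs were kept, predicted doublets were removed, and cells were clustered with leidenalg 0.10.2 (2000 variable genes, 30 principal components, libraries aligned by mutual nearest neighbours, resolution 0.6), lymphoid cells a second time. A cluster was named X-like when at least 3 of its listed markers, and 50% of the list, were raised. Where more than 1 list met this, the list with most markers among the cluster's 10 leading genes was taken, then that with the larger share raised. Clusters tied on both (other than APC or mesothelial) stayed unnamed. So did clusters of low depth with no listed marker among their 10 leading genes, as 1 cluster of 49 LFD and 81 HFD cells with 50% of APC markers. Members and partner lists were chosen with earlier results of these data known, and members were left out of clustering.

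UMIs were summed per cell type and library and divided by all UMIs (CPM). Intervals at 95% were exact Poisson (levels), Clopper-Pearson (shares) and conditional binomial (ratios); with 1 library per diet no test was run. Ratios needed 50 cells per library and 20 UMIs over both; under the stricter filter at least 10 cells per library sufficed. A count of 0 was read against a limit of 3 counts. Genes named were the 9 members, partners with at least 20 UMIs, and for each member with at least 50 UMIs the 3 genes most correlated with it; single cells with mast cell or basophil markers, Foxp3 and Gata3 were looked at after seeing the data, as were the genes of the chromosome 11 interval. The ratio intervals were tried on simulated sums drawn as Poisson counts, the model that they assume. That trial could not show how they cover UMIs gathered in few cells. Positions came from GENCODE M21 and promoters from RefSeq (8 of 9 members; Tslp is not shown). Python 3.11.15, numpy 2.4.6 and scipy 1.17.1 were used. Alternatives are given in the closing section. Results of 1 partner gene are not reported here.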

Additional observations from a re-analysis of the deposited data

How the results depend on the processing

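No paired analysis was possible because each diet had 1 library. Over 37 ratios of a member in a cell type, 291 alternative values were computed; 242 stayed within the ratio's counting interval, the other 49 lay outside it. Of ratios whose interval excluded 1, Tslp in mesothelial-like cells crossed to the other side of 1 and left its interval (0.966 after thinning to 2000 UMIs). Of ratios whose interval included 1, these did: Il1rl1 in cycling mesothelial-like cells (3.19 thinned, 2.60 stricter filter), in unresolved stromal cells (0.591 without alignment) and in stromal cells other than APC-like (0.888 thinned, 0.8996 stricter filter), and Il33 in unresolved stromal cells (1.13 thinned, 1.15 stricter filter). In ILC2-like cells the ratios of Il5 (0.526 to 0.634), Csf2 (8.30 to 13.1), Calca (0.688 to 0.871), Il1rl1 (1.14 to 1.34) and Il17rb (0.487 to 0.642) stayed within their intervals. Il13 was at 0.716 by mean CPM of cells, 0.699 without the top cell, 0.787 thinned and 0.471 with doublets kept. Il33 in APC-like cells was at 0.657 thinned and 0.677 under the stricter filter. In stromal cells other than APC-like, Calca was at 0.209 thinned and 0.232 without the Timp1-led and Ifit1-led clusters. Il33 there was at 0.668 with median-ratio scaling, 0.765 by mean CPM of cells, 0.781 thinned, 0.557 under the stricter filter and 0.894 without those clusters, an alternative chosen after seeing the data, like those without shared barcodes, cycling cells or mast cell markers.

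With doublets kept, levels in ILC2-like cells were, for LFD and HFD, 815 and 429 CPM of Il5, 812 and 559 CPM of Calca and 614 and 706 CPM of Il1rl1; in HFD, Il13 was at 280 CPM, Csf2 at 325 CPM and Il33 in APC-like cells at 149 CPM. The ILC2-like cells of that setting included a subcluster led by Tcrg-C1 (16 LFD and 24 HFD cells), in which 54.55% of both T cell and ILC2 markers were raised. Under the stricter filter, Il33 in APC-like cells (43 LFD and 235 HFD cells) was at 255 and 173 CPM and Tslp in macrophage-like cells at 2.76 and 3.92 CPM. That filter left 12 LFD and 8 HFD ILC2-like cells and was not run there. Genes past 2-fold in ILC2-like cells were 7.10% with a minimum of 50 UMIs and 38.0% with none. The share of LFD ILC2-like cells with at least 2 ligand genes was 44.7% after thinning. The causes were not tested.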
